A study of Mus musculus with 32 samples.

Results

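The orexin and melanin-concentrating hormone (MCH) genes of the lateral hypothalamus were followed as a set of 8 genes across the hypothalamus libraries of 32 male C57BL/6NTac mice. The genes were Hcrt and Pmch, the orexin neuron markers Lhx9, Pdyn and Nptx2, and the receptor genes Hcrtr1, Hcrtr2 and Mchr1. They were taken by symbol, through their Ensembl identifiers in the GRCm38 annotation, from a table of 55401 genes, and all 8 were among the 19928 genes with enough reads to be tested. The males either carried a hemizygous deletion of Gpr101, an X-linked orphan receptor gene, or were their wild-type littermates. Knockouts numbered 8 on the control diet (KO_CD) and 9 on the high-fat diet (KO_HFD), and wild types numbered 7 (WT_CD) and 8 (WT_HFD). The high-fat diet supplied 60% of its energy as fat and was given from 7 weeks of age, and the make-up of the control diet is not given in the sources used here. Tissue was taken at an age of 149 or 150 days, which followed diet: 5 KO_CD, 6 WT_CD, 1 KO_HFD and 1 WT_HFD mice were 149 days old and the others 150 days. The tissue was whole hypothalamus, so that fewer cells of a type and less RNA per cell cannot be told apart.

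Orexin (hypocretin) and MCH are made by separate, intermingled neurons of the lateral hypothalamus. Hcrt encodes the precursor of both orexin peptides, which promote wakefulness, arousal and feeding through the receptors Hcrtr1 and Hcrtr2. Pmch encodes the MCH precursor, and MCH acts through Mchr1 to favour energy storage and sleep. Orexin neurons also make dynorphin, from Pdyn, and the secreted synaptic protein Nptx2, and their identity depends in part on the LIM homeodomain factor Lhx9. All 3 of these markers are also made by neurons outside the orexin group, including thalamic, mammillary and other hypothalamic neurons.

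The stretches just upstream of the Hcrt and Pmch start sites are shown because these genes carry the main result and are transcribed in neighbouring neurons. Each is the gene's strand, 5′ to 3′, in the 250 bases before the start, from RefSeq on GRCm38.p6. Capitals mark the TATA box letters TATAAA.
Hcrt: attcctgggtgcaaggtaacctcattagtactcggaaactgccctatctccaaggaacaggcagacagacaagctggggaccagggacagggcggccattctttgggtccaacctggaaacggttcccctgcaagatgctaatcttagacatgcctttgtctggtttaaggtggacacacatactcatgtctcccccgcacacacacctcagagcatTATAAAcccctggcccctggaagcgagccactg
Pmch: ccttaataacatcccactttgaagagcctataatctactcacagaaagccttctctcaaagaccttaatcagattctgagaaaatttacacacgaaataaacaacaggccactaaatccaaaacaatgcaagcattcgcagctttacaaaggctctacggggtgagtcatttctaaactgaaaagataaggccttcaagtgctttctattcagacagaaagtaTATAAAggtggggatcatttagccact
The Hcrt stretch is chr11:100762932-100763181 on the minus strand, and the Pmch stretch is chr10:88090822-88091071 on the plus strand. TATAAA began 33 bases before the Hcrt start and 27 bases before the Pmch start. It was present on the gene's strand in 7.59% of the 32851 promoter windows of the same length. The forkhead letters TGTTTAC and the LIM homeodomain letters TAATTA, each searched on both strands, were in neither stretch. Across all windows they were present in 3.17% and 4.84%. None of the 3 motifs was found in the windows of Lhx9, Pdyn, Hcrtr1, Hcrtr2 or Mchr1, and Nptx2 had no window to search.

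Gpr101, the deleted gene, was read first to check the labels. The 8 KO_CD libraries held 0 reads of 225.6 M, where a count of 0 leaves room for at most 0.0133 CPM (3 reads in the group as a whole, counting error only), and the 9 KO_HFD libraries held 1 read. Wild-type groups had 101.3 and 102.2 CPM, and no knockout library came near a wild-type one. Reads on genes ran from 25.3 to 34.2 M per library, with group medians of 27.4 to 28.2 M. Values below are normalized counts, which are reads divided by a size factor per library. Differences are log2 fold changes of normalized count + 1 from 1 limma fit of all 4 groups, called at an adjusted p (Benjamini-Hochberg over 19928 genes) under 0.05.

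Hcrt (ENSMUSG00000045471, chr11:100761069-100762931, minus strand of GRCm38) and Pmch (ENSMUSG00000035383, chr10:88091072-88092375, plus strand) were the most abundant of the 8 genes. Levels between genes were compared as RPKM, reads scaled by exon length and library size. On that scale Hcrt averaged 206 ± 39.3 RPKM and Pmch 172 ± 27.5 RPKM (SD, n = 32 mice). Hcrt was above Pmch in 25 of 32 mice, and their ranges overlapped. Pdyn followed at 23.3 ± 1.88 RPKM, Nptx2 at 10.4 ± 0.998 RPKM and Mchr1 at 4.73 ± 0.414 RPKM, and from Pmch down to Mchr1 each was above the next gene in the order in every mouse. The orexin receptor genes were lower still, at 2.28 ± 0.311 RPKM for Hcrtr1 and 1.67 ± 0.163 RPKM for Hcrtr2. On this scale Hcrtr1 was the higher of the pair in 29 of 32 mice, with overlapping ranges. That order rests on the exon lengths, 2608 bases for Hcrtr1 and 6162 for Hcrtr2. In reads over all libraries Hcrtr2 was the higher, with 9286 against 5347. Lhx9 was lowest, at 0.563 ± 0.143 RPKM. In reads, this meant 2713 to 5485 per library for Hcrt and 2663 to 4958 for Pmch, against 72 to 221 for Lhx9 and 115 to 228 for Hcrtr1, so that counting error weighs most on the last 2 genes.

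**Figure D1:**
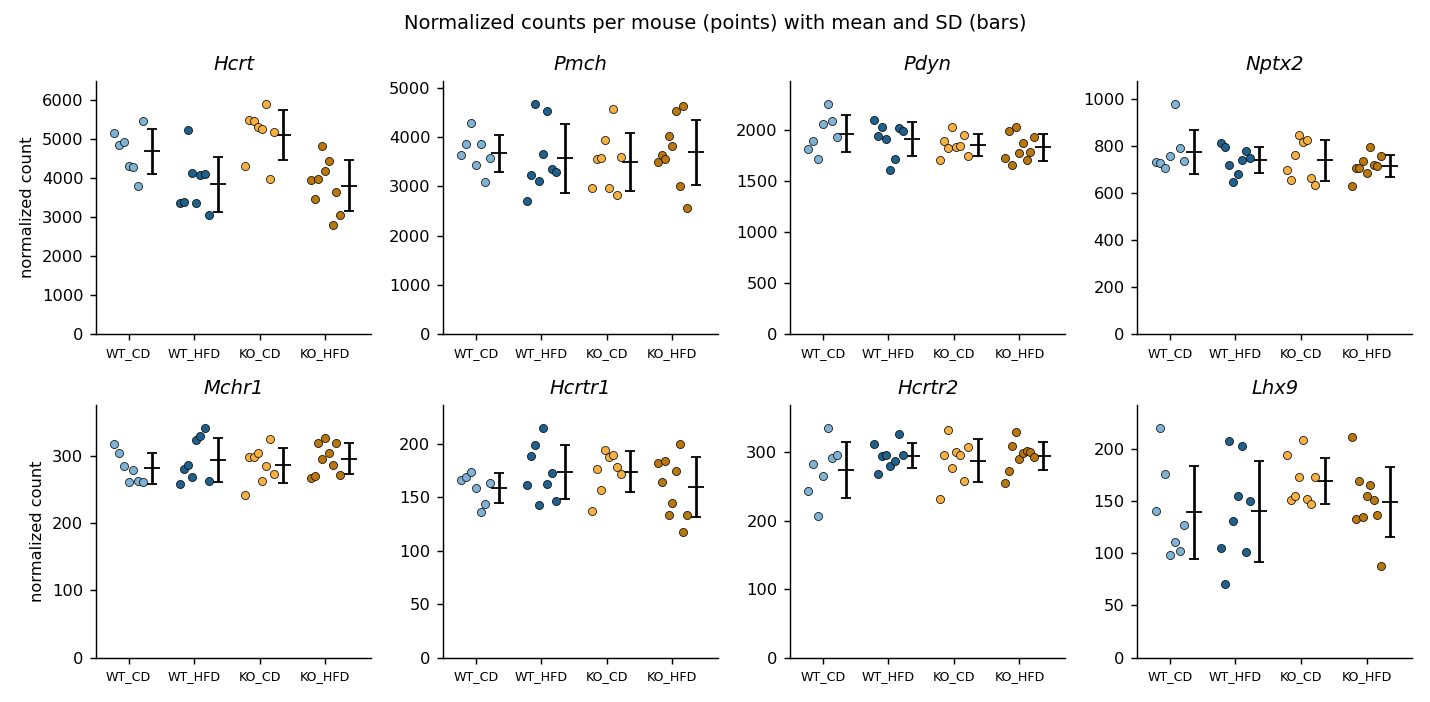
Normalized counts of the 8 genes (vertical axes, from 0) in each mouse (points) of the 4 groups (horizontal axes), with the mean and SD beside each group. High-fat groups lie lower for Hcrt, with ranges that overlap the control groups. The groups of the other 7 genes overlap too, with the KO_CD mice of Lhx9 (147 to 209) in the upper part of the wild-type range.

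Hcrt was lower on high-fat diet, and it was the single member of the set that passed the test in any comparison. In wild type, the lowest, median and highest Hcrt normalized counts were 3776, 4848 and 5457 on control diet and 3037, 3717 and 5230 on high-fat diet. In knockouts they were 3956, 5267 and 5886 on control diet and 2782, 3929 and 4807 on high-fat diet. Both high-fat medians therefore lay below the lowest control mouse of their genotype, while the ranges overlapped. Averaged over genotypes, Hcrt fell by 0.36 on the log2 scale with high-fat diet (SE 0.08, 95% interval -0.53 to -0.20, limma adjusted p = 0.0362), that is to 0.777 of its level on control diet. It was 1 of 8 members called in this comparison, where 0.336% of all tested genes were called in either direction, 0.186% as higher and 0.151% as lower.

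Within a single genotype the same difference missed the threshold. It was -0.43 in knockouts (SE 0.11, limma adjusted p = 0.220) and -0.30 in wild type (SE 0.12, limma adjusted p = 0.618). These comparisons called 0 of 8 members by limma and 0 by limma-voom, with 1 member (Hcrt) at an unadjusted limma p under 0.05 in each. Of all 19928 tested genes, 1402 in knockouts and 1473 in wild type had such a p. The shares of all genes called were 0.0351% in knockouts (0.0151% higher, 0.0201% lower) and 0.0251% in wild type. The diet differences of the genotypes differed by -0.13 (SE 0.16, limma adjusted p = 0.999). Between genotypes, Hcrt differed by 0.12 on control diet (SE 0.12) and by -0.01 on high-fat diet (SE 0.11), neither of which passed.

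The Hcrt call was near its threshold. It ended without a filter on low counts (adjusted p = 0.0733), with age as a covariate (-0.40, adjusted p = 0.206) and with the replicate block (adjusted p = 0.107), all in limma. It also ended on leaving out any 1 of 16 of the 32 libraries, with limma adjusted p-values of 0.0503 to 0.0729 and log2 differences of -0.36 to -0.34. These libraries were KO_CD replicates 2, 3, 4, 5, 6 and 8, KO_HFD replicates 2, 8 and 9, WT_CD replicates 1, 2, 3 and 7, and WT_HFD replicates 1, 2 and 8. Hcrt was lower on high-fat diet in all of these fits. Within mice of 150 days, 8 KO_HFD mice averaged 11.86 and 3 KO_CD mice 12.27 on the log2 scale, a difference of -0.41 (exact permutation p = 0.0727, 0.145 adjusted over the 2 comparisons at that age). Wild-type mice were not compared within an age, with 7 against 1 mice at 150 days and 1 against 6 at 149 days. With age as a covariate in the fit of all mice, the diet difference of Hcrt was -0.34 in wild type (SE 0.14, limma adjusted p = 0.567) and -0.46 in knockouts (SE 0.12, limma adjusted p = 0.517).

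Sequencing depth moved with Hcrt among mice of a group. Deviations of Hcrt from the group means were lower in libraries with more reads, with Pearson r = -0.56 (permutation p = 0.00114, adjusted over 9 relations 0.0103) and Spearman rho = -0.46 (permutation p = 0.0105, adjusted 0.0949). Without the 2 libraries of most extreme depth r was -0.40, and it was -0.49 within 149 days and -0.58 within 150 days. The depth ranges of the 4 groups overlapped. With log2 total reads as a covariate, chosen after seeing the data, the averaged diet difference of Hcrt was -0.37 (SE 0.07, limma adjusted p = 0.00798). In that fit the difference within knockouts also passed, at -0.47 (SE 0.09, limma adjusted p = 0.0486).

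Pmch showed no difference of this kind. In wild type its lowest, median and highest normalized counts were 3093, 3644 and 4283 on control diet and 2703, 3325 and 4677 on high-fat diet. In knockouts they were 2822, 3563 and 4581 on control diet and 2567, 3635 and 4635 on high-fat diet. The 4 groups overlapped over most of their ranges. Averaged over genotypes, the diet difference of Pmch was 0.01 (SE 0.09, 95% interval -0.17 to 0.18, limma adjusted p = 0.986), an interval that does not reach the Hcrt value. Averaged over diets, the genotype difference was -0.02 (SE 0.09, 95% interval -0.19 to 0.16). Most of Pmch is overlapped by Parpbp on the opposite strand (chr10:88091432-88146941), which had 9 to 30 reads per library. The libraries were stranded, but the strand setting of the counting is not given in the sources used here.

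Because Hcrt and Pmch are read from the same tissue block, their ratio within each mouse was compared next. The median ratio of Hcrt to Pmch was 1.26 in WT_CD, 1.08 in WT_HFD, 1.44 in KO_CD and 1.09 in KO_HFD. On the log2 scale, where 0 is an equal count, wild-type mice ran from 0.14 to 0.61 on control diet and from -0.16 to 0.41 on high-fat diet. Knockout mice ran from 0.36 to 0.82 on control diet and from -0.35 to 0.26 on high-fat diet. All 8 KO_CD mice lay above all 9 KO_HFD mice, while the wild-type groups overlapped. Every mouse on control diet had more Hcrt than Pmch, as did 5 of 9 KO_HFD and 5 of 8 WT_HFD mice.

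**Figure D2:**
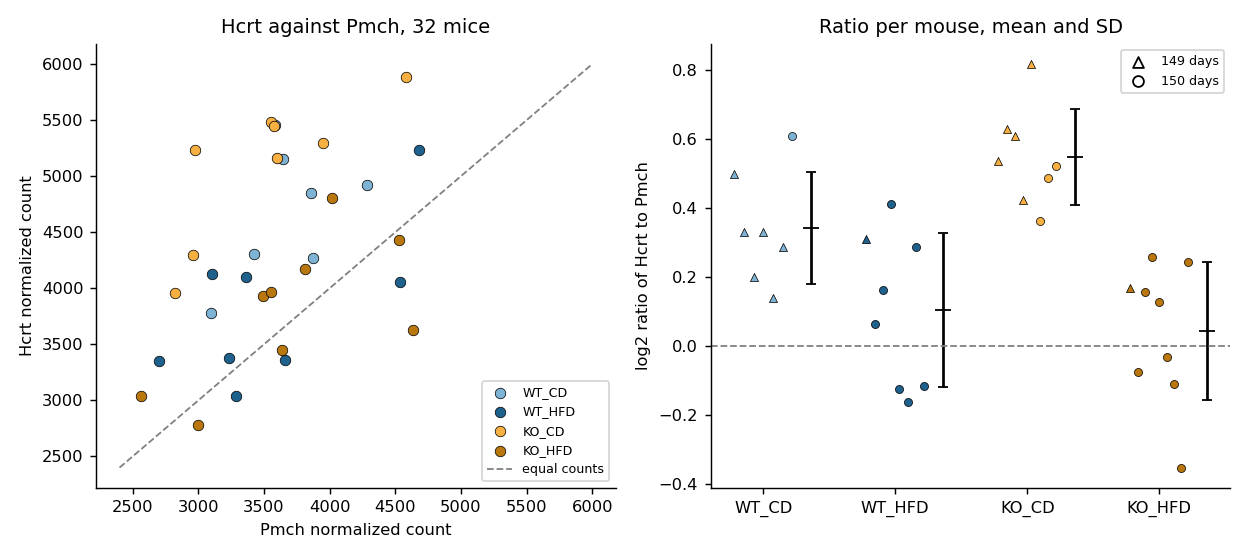
Left, Hcrt against Pmch normalized counts of the 32 mice, coloured by group, with a dashed line of equal counts. Right, the log2 ratio of Hcrt to Pmch per mouse, with mean and SD, where triangles are mice of 149 days and circles mice of 150 days: the KO_CD and KO_HFD mice do not overlap.

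On the log2 scale the ratio averaged 0.55 ± 0.14 in KO_CD (SD, n = 8) and 0.04 ± 0.20 in KO_HFD (SD, n = 9). This difference of -0.50 had an exact permutation p of 8.23e-05, the smallest these group sizes allow for such a two-sided test (0.000329 adjusted over 4 comparisons). In wild type the ratio averaged 0.34 ± 0.16 on control diet (n = 7) and 0.10 ± 0.22 on high-fat diet (n = 8). That difference of -0.24 was just under the threshold (exact permutation p = 0.0373, adjusted 0.0497). Knockouts had the higher ratio on control diet, by 0.21 (exact permutation p = 0.0208, adjusted 0.0416), and not on high-fat diet, where the difference was -0.06 (exact permutation p = 0.560).

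The knockout diet difference also held within mice of 150 days, at -0.43 (8 against 3 mice, exact permutation p = 0.0121, adjusted 0.0242). The genotype difference on control diet held within mice of 149 days, at 0.30 (5 against 6 mice, exact permutation p = 0.00866). The knockout diet difference kept its call on leaving out any 1 of its 17 mice. The wild-type diet difference lost its call on leaving out any WT_CD mouse (7 libraries), or WT_HFD replicate 2, 3, 5, 6 or 8, with values of -0.27 to -0.19 on the log2 scale and adjusted exact permutation p of 0.0506 to 0.106. The genotype difference on control diet lost its call without KO_CD replicate 5 or WT_CD replicate 2, 3, 4, 5 or 6, with values of 0.17 to 0.20 and adjusted exact permutation p of 0.0521 to 0.0693. Whether the diet difference of the ratio differs between genotypes was tested after seeing these values, by permuting genotypes within each diet. The knockout difference minus the wild-type difference was -0.27, with permutation p = 0.0509 (100000 resamples), which misses the threshold. Such a permutation assumes no genotype difference on either diet, so it does not test the interaction alone. The relation of the ratio with depth did not pass, with r = -0.25 and rho = -0.19 (adjusted permutation p = 0.451 and 0.741).

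None of the 3 other genes of orexin neurons passed the test for diet or genotype. Pdyn (ENSMUSG00000027400, chr2:129686565-129699844, minus strand), the dynorphin precursor gene, had medians of 1925 in WT_CD, 1965 in WT_HFD, 1837 in KO_CD and 1779 in KO_HFD, with all mice between 1604 and 2253. The groups overlapped widely. Its diet difference was -0.03 (SE 0.04, 95% interval -0.11 to 0.05) and its genotype difference -0.07 (SE 0.04, 95% interval -0.15 to 0.01). The diet interval does not reach the Hcrt value of -0.36. Nptx2 (ENSMUSG00000059991, chr5:144545902-144557478, plus strand), which clusters AMPA receptors at synapses, had medians of 734 in WT_CD, 743 in WT_HFD, 729 in KO_CD and 715 in KO_HFD, with a range over all mice of 627 to 977. Its diet difference was -0.05 (SE 0.04, 95% interval -0.14 to 0.04) and its genotype difference -0.06 (SE 0.04).

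Lhx9 (ENSMUSG00000019230, chr1:138825186-138848577, minus strand) varied most among mice, and its interval is too wide to place it with Hcrt or with Pmch. The lowest, median and highest Lhx9 normalized counts were 98.0, 127 and 220 in WT_CD and 71.0, 141 and 207 in WT_HFD. In knockouts they were 147, 164 and 209 on control diet and 87.7, 151 and 212 on high-fat diet. All KO_CD mice lay above the median of either wild-type group, within the wild-type range. The diet difference of Lhx9 was -0.11 (SE 0.14, 95% interval -0.39 to 0.17) and its genotype difference 0.23 (SE 0.14, 95% interval -0.05 to 0.51).

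Among the receptor genes, Hcrtr1 (ENSMUSG00000028778, chr4:130130217-130139359, minus strand) had medians of 164 in WT_CD, 168 in WT_HFD, 177 in KO_CD and 164 in KO_HFD. Its diet difference was 0.12 in wild type (SE 0.10) and -0.14 in knockouts (SE 0.09), an interaction of -0.26 (SE 0.13, 95% interval -0.53 to 0.01, limma adjusted p = 0.999) that did not pass. Hcrtr2 (ENSMUSG00000032360, chr9:76225880-76323856, minus strand) had medians of 282, 296, 296 and 299 in WT_CD, WT_HFD, KO_CD and KO_HFD, and a diet difference of 0.08 (SE 0.05, 95% interval -0.02 to 0.18). Mchr1 (ENSMUSG00000050164, chr15:81235499-81238964, plus strand), the MCH receptor gene, had medians of 280, 284, 292 and 296 in the same order, and a diet difference of 0.05 (SE 0.05, 95% interval -0.04 to 0.15). The groups of all 3 receptor genes overlapped. These genes are made by many kinds of neurons that orexin and MCH fibres reach. Genotype averaged over diets, genotype on each diet and the interaction each called 0 of 8 members by limma and by limma-voom. In these 4 comparisons 0 members reached an unadjusted p under 0.05. Over all tested genes, such a p was reached by 1140 for genotype averaged over diets, 821 on control diet, 1026 on high-fat diet and 676 for the interaction. The shares of all genes called were 0.00502% for each of the genotype comparisons and 0% for the interaction. The single gene called in each genotype comparison was Gpr101 itself.

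**Figure D3:**
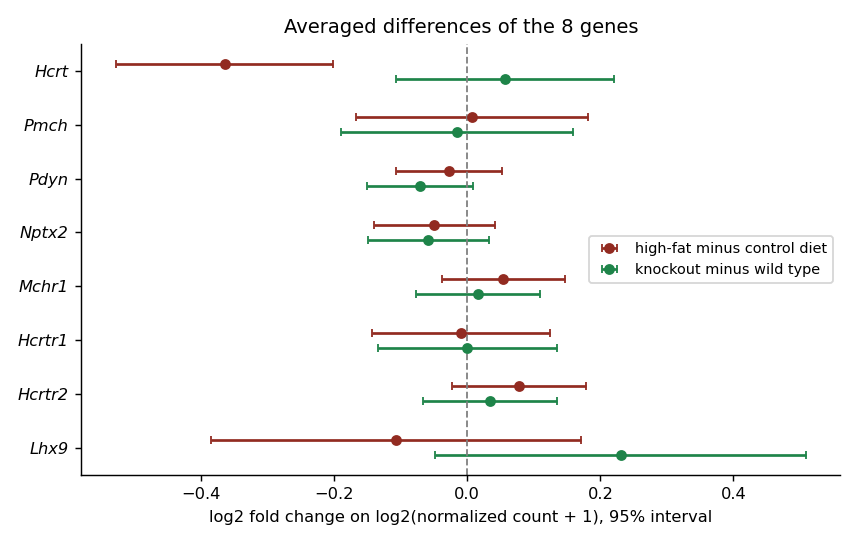
Log2 fold changes (horizontal axis) of the 8 genes (vertical axis) for high-fat against control diet averaged over genotypes and for knockout against wild type averaged over diets, with 95% intervals. The diet interval of Hcrt (-0.53 to -0.20) is the one that does not include 0.

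Across mice of a group, Hcrt and Pmch went together. Deviations of the log2 values from the group means were correlated over the 32 mice, for all 28 pairs of the 8 genes. Hcrt and Pmch had the highest correlation, with Pearson r = 0.69 (permutation p = 4e-05, adjusted over the 28 pairs 0.00112) and Spearman rho = 0.63 (adjusted permutation p = 0.00924). It was 0.63 without the 2 mice farthest from the median of Hcrt. It was 0.67 within 149 days (11 mice) and 0.73 within 150 days (18 mice), with mice that were alone in their group at an age left out, and missed the threshold in these smaller sets (adjusted permutation p = 0.143 and 0.0524). In each group taken alone it was positive, from 0.54 in WT_CD to 0.81 in KO_CD. A mouse with much Hcrt for its group thus tended to have much Pmch, while Hcrt, and not Pmch, was called for diet. Of 14915 genes with a mean of at least 50 normalized counts, Pmch had the 5th highest r with Hcrt, and Hcrt the 29th highest with Pmch.

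**Figure D4:**
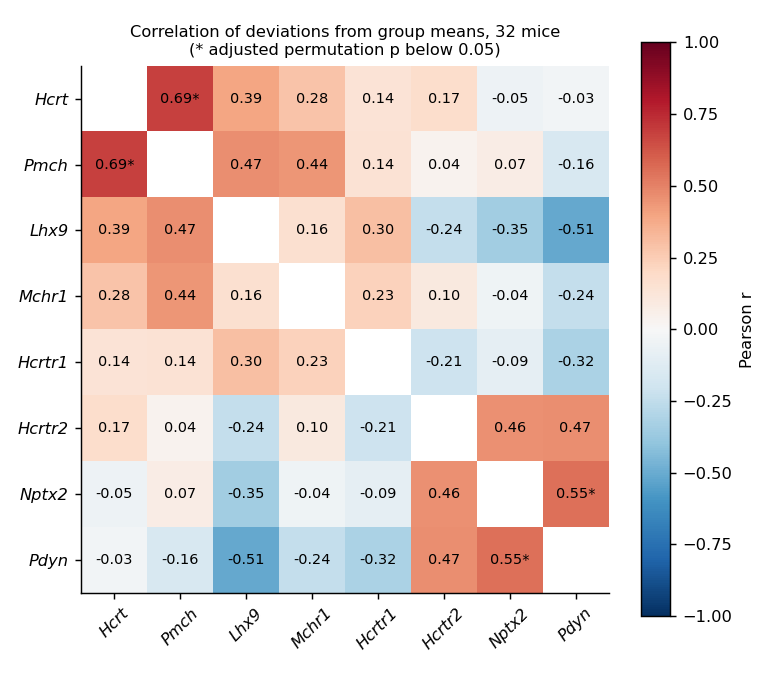
Pearson r of deviations from group means over 32 mice for the 28 pairs of the 8 genes, as colour and number. Hcrt with Pmch (0.69) and Pdyn with Nptx2 (0.55) are the pairs marked as passing the adjusted permutation test.

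The orexin neuron markers did not follow Hcrt in the same way. Lhx9 had r = 0.39 with Hcrt (adjusted permutation p = 0.147) and 0.47 with Pmch (adjusted permutation p = 0.0568). Pdyn had r = -0.03 with Hcrt and -0.16 with Pmch, and Nptx2 -0.05 and 0.07, with adjusted permutation p of 0.615 to 0.873 for these 4 pairs. Pdyn and Nptx2 instead went together, with r = 0.55 (adjusted permutation p = 0.0172) and rho = 0.53 (adjusted 0.0165). That r was 0.41 without the 2 mice farthest on Pdyn, 0.74 within 149 days and 0.30 within 150 days (adjusted permutation p = 0.109 and 0.668). It lost its call without KO_CD replicate 4 (0.51, adjusted permutation p = 0.0538) or WT_CD replicate 5 (0.45, adjusted permutation p = 0.0948). Lhx9 and Pdyn went in opposite directions by rank (rho = -0.61, adjusted permutation p = 0.0113), while their Pearson r of -0.51 missed the threshold (adjusted permutation p = 0.0568).

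Whether each gene lay closer to Hcrt than to Pmch was tested directly, through its correlation with the difference of the standardized Hcrt and Pmch deviations. Lhx9 had r = -0.09, Pdyn 0.16 and Nptx2 -0.16 with that difference. For the receptor genes the values were -0.01 for Hcrtr1, 0.17 for Hcrtr2 and -0.20 for Mchr1. None of the 6 passed, with adjusted permutation p of 0.611 to 0.974 and unadjusted p of 0.300 to 0.974. None of the 3 markers was thus placed with Hcrt and apart from Pmch, nor the reverse.

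The genes most like Hcrt and Pmch in their deviations were, apart from Pmch, not neuropeptide genes. For Hcrt they were Tppp, a microtubule protein of oligodendrocytes (r = 0.73), Map6d1 (0.72), Erbb3, a neuregulin receptor of glia (0.69), Pmch (0.69) and Pter (0.68). For Pmch they were Cox5a, a subunit of the respiratory chain (0.83), Rtn4, which encodes Nogo (0.80), Calm3, a calmodulin gene (0.78), Tspan17 (0.78) and Ypel5 (0.72). None of these other genes was called for diet. The nearest genes of the markers, named after their values were seen, were Shox2 (0.83) and Calb2 (0.78) for Lhx9, Dgkb (0.81) and Hdc (0.79) for Pdyn, and Prph (0.78) for Nptx2. Hdc encodes the enzyme that makes histamine, in this tissue in tuberomammillary neurons, and Shox2 is a homeobox gene of thalamic and other neurons.

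The levels of neighbouring cell types were set beside the members through 17 marker lists, whose summed normalized counts (members left out) were correlated with the 8 genes over the 32 mice, 136 relations in all. Hcrt followed 3 lists. It was higher where oligodendrocyte genes were higher, with r = 0.61 and rho = 0.58 (adjusted permutation p = 0.00651 and 0.0116). It was lower where ependymal and tanycyte genes were higher, with r = -0.64 and rho = -0.64 (adjusted permutation p = 0.00188 and 0.00354), and where striatal and cortical neuron genes were higher, with r = -0.52 and rho = -0.53 (adjusted permutation p = 0.0138 and 0.0171). Without the 2 mice farthest on each list these were 0.57, -0.63 and -0.50. Within 149 and 150 days they were 0.18 and 0.72, -0.86 and -0.62, and -0.85 and -0.43.

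Pmch shared these 3 relations, at r = 0.58, -0.60 and -0.69 and rho = 0.55, -0.61 and -0.67 (adjusted permutation p for r of 0.0104, 0.00651 and 0.00068). Within 149 and 150 days these r were -0.02 and 0.72, -0.43 and -0.60, and -0.63 and -0.78. Pmch was also lower where suprachiasmatic genes (r = -0.54, rho = -0.54, adjusted permutation p = 0.0118 and 0.0135) and the 5 orexin neuron genes outside the set (r = -0.48, adjusted permutation p = 0.0399, rho = -0.43, adjusted 0.0705) were higher. In the sum of those 5 genes, Dlk1 weighs most (median 8143 normalized counts). The summed levels of the 3 shared lists overlapped between the groups. Oligodendrocyte sums ran from 128082 to 156284 in KO_CD, 124043 to 156813 in KO_HFD, 124507 to 142410 in WT_CD and 122474 to 154077 in WT_HFD. Ependymal and tanycyte sums ran from 3565 to 4898, 3809 to 5021, 4040 to 4976 and 3834 to 5821 in the same order. Striatal and cortical sums ran from 2441 to 2774, 2336 to 2664, 2475 to 2927 and 2431 to 2692. All 7 genes of each of these lists had reads, and 0 of 7 were called for diet by limma or limma-voom. Unadjusted p was under 0.05 for 0, 0 and 2 of them, and for 2208 of all 19928 tested genes. Of the meningeal fibroblast genes, 7 of 7 had diet differences above 0 (median 0.42), with 0 called by limma or limma-voom and 0 at an unadjusted p under 0.05. Their sums ran from 1127 to 4946 in KO_CD, 1344 to 6082 in KO_HFD, 1337 to 3436 in WT_CD and 1147 to 6004 in WT_HFD. Their correlation with Hcrt was -0.37 (rho = -0.39, adjusted permutation p = 0.141 and 0.116). The part of these cells in the Hcrt difference was not tested. For the log2 ratio of Hcrt to Pmch, the relations with the same oligodendrocyte, ependymal and striatal lists did not pass, with r = -0.01, 0.00 and 0.26 (adjusted permutation p of 0.607 to 0.992) and rho = 0.02, -0.04 and 0.31 (adjusted 0.393 to 0.924). Within 149 and 150 days these r were 0.24 and -0.03, -0.47 and -0.00, and -0.20 and 0.51.

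**Figure D5:**
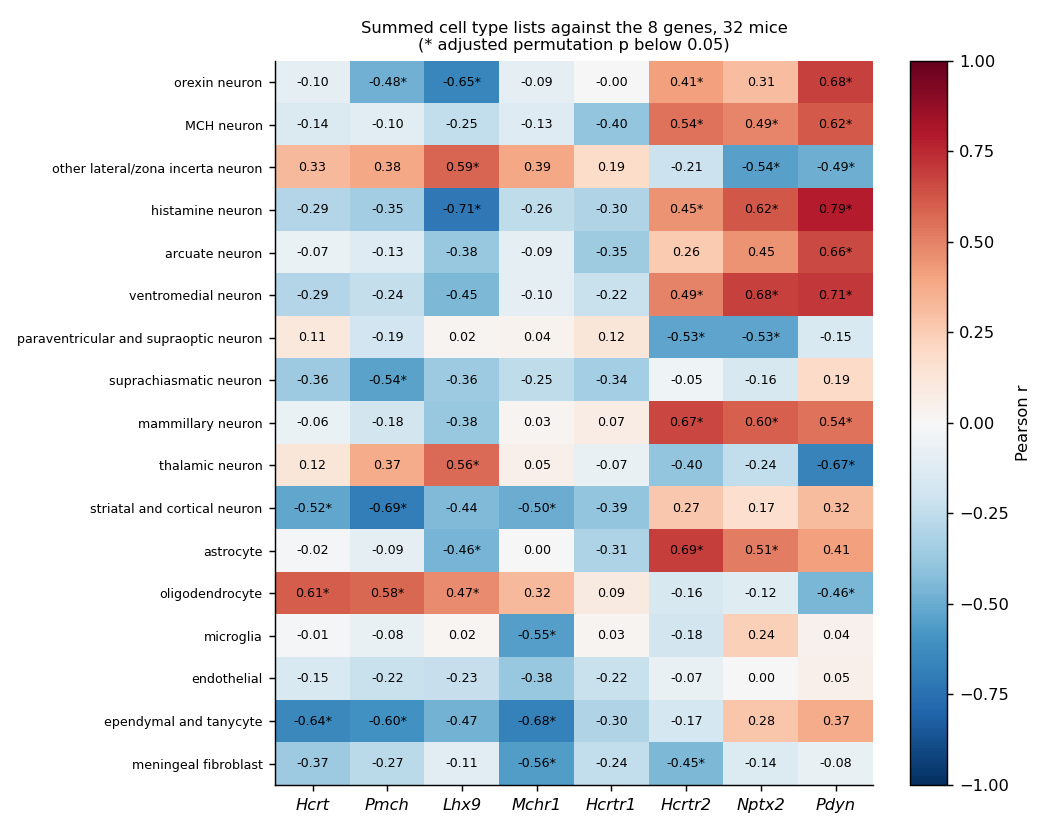
Pearson r, as colour and number, between the summed normalized counts of 17 cell type marker lists (rows) and the 8 genes (columns) over 32 mice, from deviations from group means. Hcrt and Pmch share their signs for oligodendrocyte, ependymal and striatal or cortical genes, while Pdyn and Nptx2 follow histamine and ventromedial genes (up to 0.79).

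Pdyn, Nptx2 and Lhx9 each went with or against several marker lists. In the list of other lateral hypothalamic and zona incerta neurons, the abundant genes weigh most in the sum. Medians were 12334 normalized counts for Gad2, 9759 for Gad1 and 8294 for Slc17a6, against 601 for Nts and 1032 for Gal. Relations with this sum are therefore not particular to the lateral hypothalamus. With the 14 genes of other lateral hypothalamic and zona incerta neurons, Lhx9 had r = 0.59 and rho = 0.52 (adjusted permutation p = 0.0170 and 0.0258), and 0.40 and 0.63 within 149 and 150 days. Against the same genes, Nptx2 had r = -0.54 and rho = -0.49 (adjusted permutation p = 0.00416 and 0.0135), and -0.61 and -0.38 within the ages. Pdyn had r = -0.49 and rho = -0.47 (adjusted permutation p = 0.0436 and 0.0458), and -0.49 and -0.38 within the ages. Among the other regions, Pdyn went with histamine neuron genes (r = 0.79, rho = 0.76, adjusted permutation p = 0.00068 and 0.000907), ventromedial genes (r = 0.71) and arcuate genes (r = 0.66), and against thalamic genes (r = -0.67). Nptx2 followed ventromedial (r = 0.68), histamine (r = 0.62) and mammillary genes (r = 0.60). Lhx9 went against histamine genes (r = -0.71) and with thalamic genes (r = 0.56). The relations with these other regions had adjusted permutation p of 0.00068 to 0.00374 for r and 0.000907 to 0.00251 for rho, and the same sign within 149 and within 150 days. The 5 other orexin neuron genes (Plagl1, Ebf2, Igfbp3, Nr6a1 and Dlk1) went with Pdyn (r = 0.68, rho = 0.69, adjusted permutation p = 0.00085 and 0.000907) and against Lhx9 (r = -0.65, rho = -0.70, adjusted permutation p = 0.00188 and 0.000907). Within 149 and 150 days these r were 0.71 and 0.67 for Pdyn and -0.73 and -0.59 for Lhx9. With Hcrt itself the 5 genes had r = -0.10 (adjusted permutation p = 0.768). With the log2 ratio of Hcrt to Pmch their relation did not pass, with r = 0.50 and rho = 0.41 (adjusted permutation p = 0.145 and 0.393). That r was the highest of the 17 lists with the ratio, at an unadjusted permutation p of 0.00853. Within 149 and 150 days it was 0.19 and 0.68. The sums of the 5 genes overlapped between the groups, from 10264 to 12226 normalized counts. These 5 genes are also expressed outside orexin neurons, Dlk1 at 7262 to 8884 normalized counts per mouse. Dlk1 and Plagl1 weigh most in their sum, with medians of 8143 and 2360 normalized counts. The medians of Igfbp3, Nr6a1 and Ebf2 were 385, 317 and 149. Relations with this sum are therefore mainly those of Dlk1 and Plagl1, and need not hold for each of the 5 genes.

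Of the receptor genes, Hcrtr1 followed 0 of 17 lists, Hcrtr2 followed 8 and Mchr1 followed 4. The strongest relation of Hcrtr2 was with astrocyte genes (r = 0.69, rho = 0.56, adjusted permutation p = 0.00177 and 0.0135), which was 0.91 within 149 days and 0.21 within 150 days. Mchr1 was lower where ependymal and tanycyte genes were higher (r = -0.68, rho = -0.69, adjusted permutation p = 0.00214 and 0.00238), and this was -0.73 and -0.65 within the ages.

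Lists of genes around the peptides held few called genes. Over all 19928 tested genes, 67 (0.336%) were called for diet averaged over genotypes, and 2208 had an unadjusted p under 0.05. The counts below stand beside these. Of the 8 orexin neuron genes, 0 were called for diet by limma or limma-voom, with 3 at an unadjusted p under 0.05 and a median log2 difference of -0.02 (all genes, -0.00). The 3 were Igfbp3 at 0.17 (SE 0.05, limma adjusted p = 0.168), the imprinted gene Dlk1 at -0.07 (SE 0.02, limma adjusted p = 0.184) and Plagl1 at 0.10 (SE 0.04, limma adjusted p = 0.313). Of the MCH neuron genes, Cartpt, the CART peptide precursor that many MCH neurons make, rose by 0.32 (SE 0.05, limma adjusted p = 0.00139). The call held without any 1 library (limma adjusted p up to 0.00382) and ended with age as a covariate (0.28, limma adjusted p = 0.125). Cartpt is also made in arcuate and paraventricular neurons. Tacr3, the neurokinin B receptor gene, had a diet difference of 0.02 (SE 0.05).

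Among 12 genes of peptide processing and secretion, 1 was called for diet, beside 0.336% of all tested genes. It was Scg2, secretogranin II of dense-core vesicles, which fell by 0.10 (SE 0.02, limma adjusted p = 0.00249). That call also held without any 1 library (limma adjusted p up to 0.00703) and ended with age as a covariate (limma adjusted p = 0.125). Carboxypeptidase E (Cpe) was at -0.04 (SE 0.02) and prohormone convertase 1 (Pcsk1) at -0.04 (SE 0.02), neither of which passed, and the median of the list was -0.02. Of 16 genes that couple or carry orexin receptor signals, 0 were called, 2 had an unadjusted p under 0.05 and the median was -0.03. Those 2 were Dagla, which makes the endocannabinoid 2-AG (-0.09, SE 0.03, limma adjusted p = 0.116), and the cation channel gene Trpc5 (-0.10, SE 0.04, limma adjusted p = 0.269). Of 8 genes of MCH receptor coupling, 0 were called, 2 had an unadjusted p under 0.05, and the median was -0.01. Adcy3, the adenylyl cyclase of neuronal cilia, was at -0.06 (SE 0.02, limma adjusted p = 0.250).

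The dynorphin and opioid list (8 genes) and the neuronal pentraxin list (7 genes) had 0 genes called for diet, with 1 and 3 at an unadjusted p under 0.05. The opioid median was -0.03 and the pentraxin median -0.04, with 0 of 7 pentraxin genes above 0. Nptx1, the sister of Nptx2, at -0.05 (SE 0.02, limma adjusted p = 0.405). The AMPA receptor subunit gene Gria1 was at -0.05 (SE 0.02, limma adjusted p = 0.152). For genotype averaged over diets, 0 genes of these lists were called by limma or limma-voom. Unadjusted p fell under 0.05 for 1 orexin neuron gene and 1 opioid gene, and for 0 genes of the other 5 lists. Over all 19928 tested genes it did so for 1140.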

How the data were processed

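Total RNA of 32 mouse hypothalami was sequenced as stranded read pairs, per the labels' protocols. Per the submitters' processing notes, STAR 2.7.6a and the build GRCm38 were used, along with DESeq2 1.28.1 in R 4.0.2, and cutadapt 2.10, Trim Galore 0.6.2 and FastQC are named as well. No source used here gives the counting tool or its strand setting. The authors deposited log2 size-factor normalized counts, as the file values show, and wrote 0 as the log2 of 0.1. They were turned back into normalized counts, and dividing by the step of each library gave whole reads for 100% of values (tolerance 0.001). Of 55401 genes, 55141 matched the GENCODE M21 annotation. RPKM used the recovered reads and the length of all annotated exons together.

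Genes reaching 10 normalized counts in at least 7 libraries (19928) were tested as log2(normalized count + 1) with limma 3.58.1 (statmod 1.5.0, R 4.3.3, trend and robust), in 1 fit of the 4 groups with 7 comparisons. The pseudocount of 1 understates changes of low genes. Benjamini-Hochberg adjustment ran over all tested genes. The Hcrt to Pmch ratio was compared by exact two-sided permutation of mice. Correlations across mice used deviations from group means and 100000 two-sided permutations within groups (Python 3.11.15, numpy 2.4.6, scipy 1.17.1, pandas 2.3.3). Alternatives were limma-voom on the recovered reads, other pseudocounts, no filter, total-count scaling, the replicate number as a block, age or the run of 8 label numbers a mouse fell in as covariates, and leaving out each library. A covariate of log2 total reads was chosen after seeing the data. The limma fit and the within-group permutation of correlations were tested on simulated data, and the other steps were not.

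Genes named were the 8 members, Gpr101, the 5 genes most correlated with Hcrt and with Pmch, and, of each list, the called genes and up to 3 others with the smallest p over the 7 comparisons. Others are said to be chosen after their values were seen. Members and lists were chosen with earlier results of these data known. The mice are separate samples in the labels, and log2 values in the single-sample files and the series table were within 0.0005 of each other. Library pairs correlated at 0.988 to 0.991, so none was treated as a copy of another. Equal replicate numbers were not taken to pair the mice: 45 pairs of the same number in different groups had a mean correlation of deviations of 0.0196, and 8 were over 0.1. For 338 pairs of other numbers in different groups the mean was -0.00261, and 40 were over 0.1. For 95 pairs in different groups from the same run of 8 label numbers the mean was 0.0251, and 17 were over 0.1.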

Additional observations from a re-analysis of the deposited data

Results flagged for a closer look

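Of 36 groups of values for the members and the ratio, 1 held a mouse far from its group. Nptx2 was at 977 normalized counts in WT_CD replicate 5, while the other WT_CD mice lay between 707 and 790. The gap was 0.692 of the whole range of the group, against a critical value of 0.568 for 7 mice. Chance marks about 1 in 20 groups in this way. A difference in Nptx2 between groups was called neither with this mouse nor without it.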

How the results depend on the processing

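Of 504 log2 differences of members under the other settings, 486 kept their direction and side of the threshold. Members called for diet averaged over genotypes were 0 without the filter, with the replicate block and with age as a covariate, and 0 to 1 on leaving out 1 library. With log2 total reads as a covariate, 1 member was called for diet in knockouts. Over all genes that diet comparison called 67 (37 higher, 30 lower), against 43 without the filter, 45 with the replicate block and 12 with age. Limma-voom gave 46 higher and 23 lower, and total-count scaling 48 and 23. The block changed no other call of a member. TMM scaling was not run. Differences near 0 changed sign. With the replicate block, Hcrt genotype on high-fat diet was 0.0274, Pmch genotype averaged over diets 0.00958, Hcrtr1 genotype averaged 0.0306 and Hcrtr1 diet averaged 0.0212. With the run of 8 label numbers as a covariate these were 0.00471 for Hcrt and 0.00717 for Hcrtr1 genotype averaged, which was 0.000214 with pseudocount 8 and 0.00299 with limma-voom. Lhx9 diet in wild type was 0.00994 with limma-voom, 0.0820 with age, 0.0126 with the label runs and 0.000894 with log2 total reads. With age, Pmch diet averaged was -0.0728 and the Mchr1 interaction 0.00578. For co-variation, Hcrt with Pmch was 0.470 with groups not removed, and 0.675 and 0.729 within 149 and 150 days, with adjusted permutation p of 0.0640, 0.143 and 0.0524. With groups not removed, r was 0.0202 for Hcrt with Pdyn, 0.0571 for Hcrt with Nptx2 and -0.0192 for Hcrt with Hcrtr2. Within 150 days it was 0.163, 0.133 and, for Hcrt with Hcrtr1, -0.0452, with 0.142 for Lhx9 with Hcrtr2 and 0.130 for Nptx2 with Hcrtr1. Within 149 days it was -0.0597 for Hcrt and -0.0627 for Pmch with Hcrtr2. With the replicate block it was 0.0161 for Hcrt with Pdyn, -0.0953 for Pmch with Hcrtr2 and -0.0372 for Hcrtr2 with Mchr1, and with the label runs removed -0.0715 for Pmch with Nptx2 and -0.0393 for Pmch with Hcrtr2. Closeness to Hcrt over Pmch was 0.00756 for Lhx9, 0.0735 for Hcrtr1 and -0.0379 for Hcrtr2 with groups not removed, and 0.193 for Lhx9, -0.379 for Pdyn, 0.340 for Hcrtr1 and 0.160 for Mchr1 within 149 days. Leaving out 1 library gave these ranges. Genotype on high-fat diet ran from -0.0554 to 0.0566 for Hcrt, -0.00395 to 0.113 for Pmch, -0.0255 to 0.0202 for Hcrtr2 and -0.0143 to 0.0428 for Mchr1. Genotype on control diet ran from -0.00530 to 0.0555 for Mchr1. Genotype averaged ran from -0.0449 to 0.0155 for Pmch and -0.0216 to 0.0258 for Hcrtr1. Diet averaged ran from -0.0228 to 0.0381 for Pmch and -0.0333 to 0.0164 for Hcrtr1. Diet in wild type ran from -0.101 to 0.118 for Lhx9, and diet in knockouts from -0.0372 to 0.000730 for Pdyn and -0.00374 to 0.0705 for Hcrtr2. The interaction ran from -0.0181 to 0.0488 for Pdyn, -0.0334 to 0.0537 for Nptx2 and -0.0447 to 0.0214 for Mchr1. The ratio of Hcrt to Pmch ran from 0.167 to 0.250 for genotype on control diet and -0.282 to -0.194 for diet in wild type. Co-variation ran from -0.127 to 0.0150 for Hcrt with Pdyn, -0.133 to 0.00477 for Hcrt with Nptx2, -0.0149 to 0.149 for Pmch with Nptx2 and -0.0440 to 0.168 for Pmch with Hcrtr2. For Nptx2 it ran from -0.180 to 0.0290 with Hcrtr1 and -0.106 to 0.0241 with Mchr1, and for Hcrtr2 with Mchr1 from -0.0650 to 0.166. Closeness of Hcrtr1 ran from -0.230 to 0.0904. The cause of these shifts was not tested. Lhx9 and Hcrtr1 had the fewest reads of the members, so that counting error weighs most on them. Whether it accounts for their spread among mice was not tested.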

Other observations

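Feeding genes of the arcuate nucleus and a peptide gene of the paraventricular and supraoptic nuclei were set beside the orexin and MCH genes. For high-fat against control diet averaged over genotypes, 0 of 7 tested arcuate genes were called by limma or limma-voom. Unadjusted p was under 0.05 for 3 of them, and for 2208 of all 19928 tested genes. Npy, a peptide gene of hunger neurons, was at -0.32 (SE 0.10, limma adjusted p = 0.162), and Ghrh, the growth hormone-releasing hormone gene, was at -0.23 (SE 0.08, limma adjusted p = 0.216). The Npy value was close in size to the Hcrt value of -0.36, with a larger error. The relation of the summed arcuate genes with Hcrt across mice did not pass (r = -0.07, rho = -0.04, adjusted permutation p = 0.815 and 0.897). Sst, Pomc and Otp weigh most in that sum, with medians of 4388, 2077 and 1528 normalized counts, against 265 for Npy and 114 for Agrp. The relation of Npy alone with Hcrt was not tested. Kiss1, a peptide gene of reproductive control, had 0 reads in all libraries and was the single marker of the 17 lists with none. Whether this reflects the tissue or the annotation and counting of that gene was not tested.

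For diet averaged over genotypes, 0.336% of all tested genes were called in either direction. Avp, the vasopressin precursor gene, rose by 0.34 on high-fat diet (SE 0.08, limma adjusted p = 0.0477), opposite in sign to Hcrt, and was the 1 gene of 5 paraventricular and supraoptic genes called. This call held on leaving out KO_CD replicate 1 or 7, KO_HFD replicate 7 or 8, WT_CD replicate 4 or WT_HFD replicate 5, and ended on leaving out any of the other 26 libraries (limma adjusted p up to 0.0974). It also ended without the filter (limma adjusted p = 0.104), with age as a covariate (limma adjusted p = 0.242) and with log2 total reads as a covariate (limma adjusted p = 0.0540).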
